A study of Sparus aurata with 9 samples.

Results

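The comparison described here set white muscle of gilthead seabream (Sparus aurata) swimming at 2 body lengths per second (2 BL/s) against that of fish swimming at 1 BL/s. Of the 9 fish sequenced, 3 had swum at the faster and 3 at the slower speed. They were found by the sample labels, and every gene model of the count table of these groups was used. Of its 61849 gene models, 13407 were counted at least once among the 6 fish, and the 3963 that passed a filter on low counts were tested. The fish were juveniles from a commercial farm, kept for 8 months under water flow that made them swim steadily in 1 direction at 2 BL/s or at 1 BL/s. The remaining 3 fish were kept for the same 8 months at minimal flow, swam freely, and serve below as background levels that entered no test. Each group was 1 tank, so swimming speed and tank cannot be told apart. Each sample was a separate fish, and no genetic change or added agent was part of the design. The question was which transcripts differ between fast and moderate exercise, apart from the difference of either from rest.

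White muscle makes up most of a fish's trunk and is built of fast fibres that contract on glycolysis and phosphocreatine. Steady slow swimming is driven mainly by the thin layer of red, slow fibres under the skin, and white fibres are recruited as speed rises. Contraction slides myosin thick filaments along actin thin filaments, and calcium released from the sarcoplasmic reticulum switches it on through troponin. Muscle mass follows the balance between growth signals, such as the insulin-like growth factors, and restraints, such as myostatin and ubiquitin-dependent breakdown.

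Total counts were 4605448, 3660245 and 4165037 at 2 BL/s, against 4818384, 4253795 and 4187722 at 1 BL/s (two-sided exact permutation p = 0.4, where 3 fish against 3 cannot give less than 0.1). Fast muscle markers summed to between 235055 and 258197 counts relative to the library total (CPM) at 2 BL/s and between 252634 and 254810 at 1 BL/s, as the label white muscle requires. The library of fish 3 at 1 BL/s was unlike the other 8. Gene models were listed as long or short transcripts by the proteins they encode, and transcript length itself was not measured. In this library those listed as long lay low relative to those listed as short. The difference in median log2 deviation was -1.15, against 0.036 to 0.515 in the other 8. The library had a count on 7780 gene models, against 8721 to 9718. In a principal component analysis of the 6 fish it scored 48.0 on the first component, against -18.3 to -2.82 for the others. Calls that were lost without this fish are named as such below, while losses without another fish are given for some calls only. Slow and red muscle markers summed to between 1.52 and 261 CPM at 2 BL/s, the highest in fish 2, and to between 2.12 and 15.8 CPM at 1 BL/s. Tendon and fibroblast markers reached 4878 CPM in fish 3 at 2 BL/s, against 1390 to 1592 in the other fish at that speed and 1655 to 2414 at 1 BL/s. In bulk tissue, fewer cells of a type and less RNA per cell cannot be told apart.

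**Figure D1:**
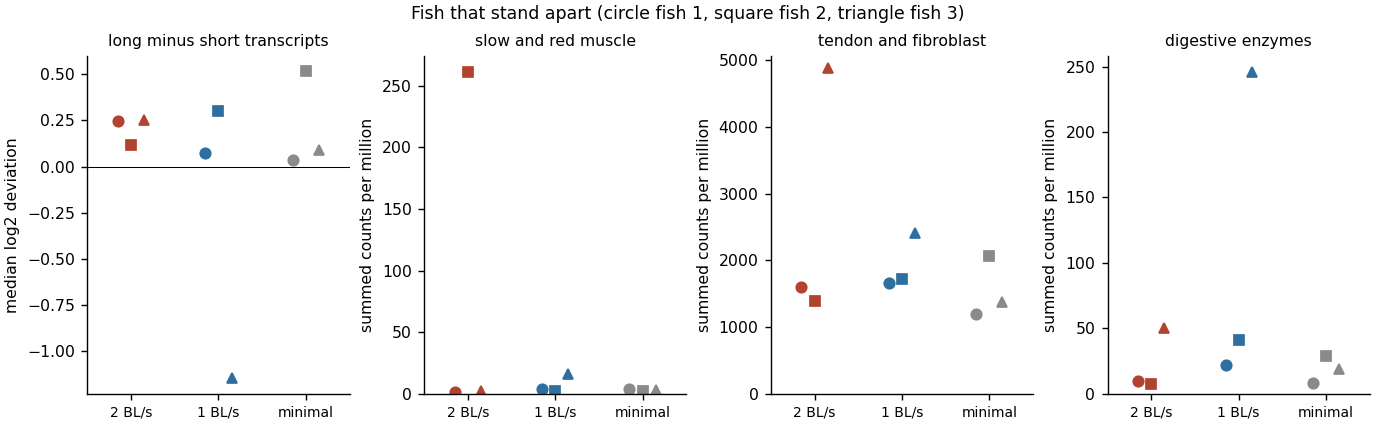
Long-minus-short transcript index (median log2 deviation, left panel) and summed CPM of 3 marker groups (other panels, linear axes) in each fish, by group. Each symbol is 1 fish. Fish 3 at 1 BL/s has the index of -1.15 and the highest digestive enzyme sum (246 CPM), fish 2 at 2 BL/s the highest slow muscle sum (261 CPM), and fish 3 at 2 BL/s the highest tendon and fibroblast sum (4878 CPM).

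No gene model passed a Benjamini-Hochberg adjusted p of 0.05 in edgeR's quasi-likelihood test, where the smallest adjusted p was 0.802. At an unadjusted p of 0.05, 168 of the 3963 gene models tested passed (4.24%), and 198.15 would do so if the p-values were uniform. Of these, 78 were higher (1.97%) and 90 lower (2.27%) at 2 BL/s than at 1 BL/s. All single-gene differences below are thus calls at an unadjusted p, and higher and lower refer to 2 BL/s relative to 1 BL/s. DESeq2 gave 132 calls at an unadjusted p of 0.05 and 2 at an adjusted p of 0.05. Log2 fold changes had a median standard error of 0.37, and the median 95% interval reached 0.83 on either side, which is 1.77-fold. Among the calls the size of the log2 fold change was between 0.46 and 5.14, with a median of 1.05. Differences of less than about that half-width were not detectable at this depth and number of fish for most gene models.

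**Figure D2:**
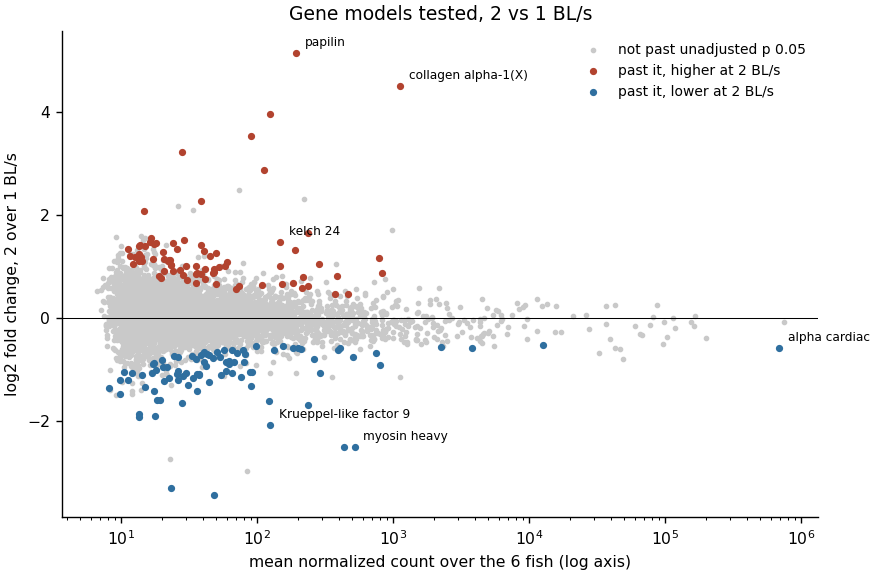
Log2 fold change of 2 over 1 BL/s (y axis) against the mean normalized count over the 6 fish (x axis, log scale) for the 3963 gene models tested. Coloured points are the 78 gene models higher and the 90 lower at an unadjusted p of 0.05. The named points at the top, papilin-like (5.14) and collagen alpha-1(X) (4.50), rest on 1 fish.

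Values of single fish are given below as normalized counts, that is raw counts corrected for the size and composition of each library. In 429 of the gene models tested (10.8%) these did not overlap between the groups, with 2 BL/s above in 212 (5.35%) and below in 217 (5.48%). Of the 168 calls, 122 had groups that did not overlap and 46 had groups that did. Single fish decided many calls. Without fish 3 at 1 BL/s there were 153 calls (3.52% of those tested), and 74 of the 168 were among them. Without fish 2 at 2 BL/s there were 120 calls and 73 of the 168 were kept. Without fish 1 at 1 BL/s there were 299. In all, 34 gene models were called with the 6 fish and without each fish in turn, 14 of them higher and 20 lower. Of the 70 called gene models chosen for description, 31 were called without each fish in turn, and 39 were lost without at least 1 fish. The number lost was 21, 26 and 25 without fish 1, 2 and 3 at 2 BL/s, and 10, 23 and 29 without fish 1, 2 and 3 at 1 BL/s.

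**Figure D3:**
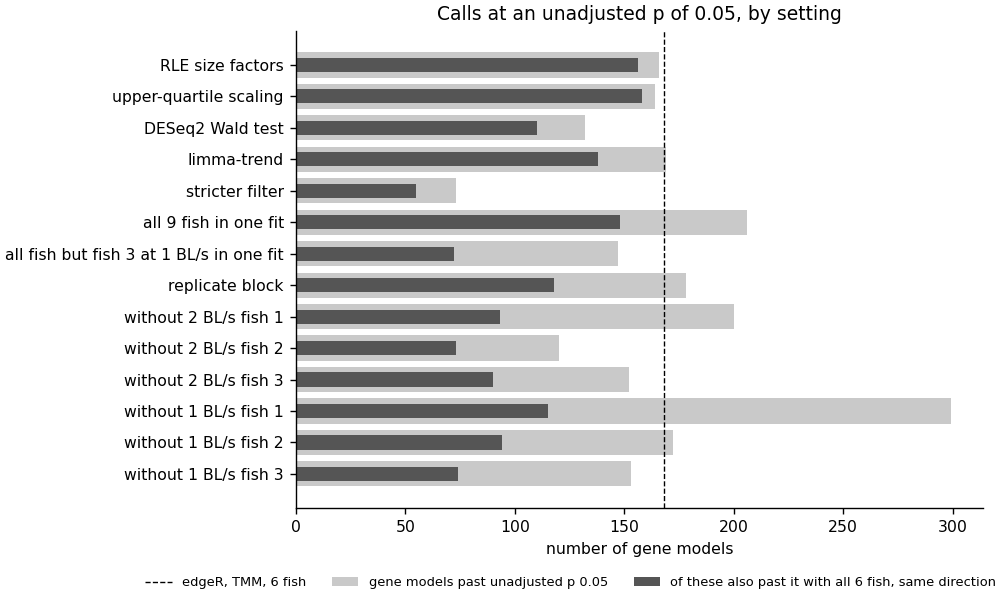
Number of gene models past an unadjusted p of 0.05 (light bars) and those of them that were also called with all 6 fish in the same direction (dark bars), by alternative setting. The setting without a filter on low counts (633 calls) is not drawn. The dashed line marks the 168 calls. The counts without 1 fish lie between 120 and 299, and 73 to 115 of the 168 calls are kept.

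Of the 5 most abundant gene models, 1 was called, and it was lower at 2 BL/s. The most abundant gene models encode glycolytic and phosphocreatine enzymes and a protein described as alpha cardiac, a description that names no protein and is grouped here with the thin filament. Alpha cardiac (Sa_24785.4.1) held 14.5, 12.9 and 13.7% of the counts at 2 BL/s, against 18.4, 17.5 and 17.96% at 1 BL/s. Its normalized counts were 632718, 474450 and 536667 at 2 BL/s, against 770810, 755897 and 955446 at 1 BL/s and 923222, 642373 and 691439 at minimal flow. The groups did not overlap, and it was lower at 2 BL/s by 1.51-fold (log2 fold change -0.59, SE 0.19, unadjusted p = 0.0121) and remained called without each fish in turn. Glyceraldehyde-3-phosphate dehydrogenase, a central enzyme of glycolysis, held 17.6, 18.2 and 18.7% of the counts at 2 BL/s, against 15.5, 17.1 and 17.4% at 1 BL/s, groups that did not overlap as shares. Its normalized counts did overlap, and it was not called (log2 fold change -0.09, SE 0.19, unadjusted p = 0.64). The 39 tested members of the glycolysis and glycogen list together held 37.3, 39.4 and 38.8% of the counts at 2 BL/s, against 33.6, 35.3 and 34.8% at 1 BL/s and 31.9 to 37.4% at minimal flow. Their summed normalized counts overlapped, with 1.63e+06, 1.45e+06 and 1.52e+06 at 2 BL/s, against 1.41e+06, 1.53e+06 and 1.85e+06 at 1 BL/s. The 32 tested members of the thin filament, Z-disc and titin list held 18.9, 17.4 and 18.3% at 2 BL/s, against 22.9, 21.6 and 21.5% at 1 BL/s and 19.3 to 23.4% at minimal flow. Alpha cardiac is a member and made up most of these shares, so they largely repeat its values. The median log2 fold change over the 32 members was -0.08. Shares within a library add up to a fixed total, so they are not independent of each other. The log2 fold changes of creatine kinase M-type, which regenerates ATP from phosphocreatine, were -0.40 (SE 0.22) and -0.17 (SE 0.19) for its most abundant gene models (Sa_49005.2.1 first, then Sa_22826.1.1). That of the L-lactate dehydrogenase A chain, which turns pyruvate into lactate, was 0.03 (SE 0.17). None of these was called. The 10 most abundant gene models took 59.48, 58.2 and 58.0% of the counts at 2 BL/s, against 59.53, 60.5 and 62.3% at 1 BL/s. These did not overlap (two-sided exact permutation p = 0.1, the minimum for 3 fish against 3), but fish 1 of each group lay almost level.

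The myosin heavy chain gene model Sa_24470.1.1, described as fast skeletal muscle-like and encoding the motor of the thick filament, had the smallest p. It had 191, 183 and 93.8 normalized counts at 2 BL/s, against 1069.8, 425 and 1175 at 1 BL/s and 1588, 201 and 381 at minimal flow. All fish at 2 BL/s lay below all fish at 1 BL/s, and also below the fish at minimal flow, though only narrowly below the lowest of these. It was 5.70-fold lower at 2 BL/s (log2 fold change -2.51, SE 0.42, unadjusted p = 0.000202), with a 95% interval of the log2 fold change between -3.47 and -1.56. The edgeR Benjamini-Hochberg adjusted p was 0.802. Over the alternatives it was between 2.93e-15, in the fit without a filter on low counts, and 0.999. It was 1 of the 2 gene models past an adjusted p of 0.05 in DESeq2 (adjusted p = 2.24e-06). Without each fish in turn the log2 fold change stayed between -2.87 and -2.27. Fast myosin heavy chains are a family of near-identical genes, so reads may have been split between copies.

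Of the 35 tested fast contractile genes, 0 were higher and 3 lower (8.57% called, beside 4.24% of all tested). The median log2 fold change was -0.03, beside 0.03 over all gene models tested. The second of the 3 was a gene model described as myosin heavy partial (Sa_35509.2.1), with 108, 284 and 169 normalized counts at 2 BL/s, against 628, 253 and 297 at 1 BL/s, which overlapped (log2 fold change -1.07, SE 0.43, unadjusted p = 0.0338). The remaining member was myosin-binding fast-type-like (Sa_9215.1.7), described as a fast type of a protein bound to myosin, with 14.2, 21.1 and 15.9 at 2 BL/s, against 29.5, 37.6 and 38.1 at 1 BL/s (log2 fold change -1.03, SE 0.31, unadjusted p = 0.00901). Its groups did not overlap. With fish 3 at 1 BL/s left out, 1 member of this list was called higher and 5 lower, with a median of -0.13. On the thin filament list, 2 of 32 were lower and 0 higher (6.25% called, beside 4.24% of all tested, median -0.08). Beside alpha cardiac this was tropomodulin-4, which caps the slow-growing ends of thin filaments, with 11529, 9857 and 9641.5 normalized counts at 2 BL/s, against 14197, 11881 and 18612 at 1 BL/s (log2 fold change -0.53, SE 0.21, unadjusted p = 0.0342). It was not called once fish 3 (unadjusted p = 0.0651) or fish 1 at 1 BL/s (unadjusted p = 0.0532) was left out. Nor was it called without fish 2 (unadjusted p = 0.0907) or fish 3 at 2 BL/s (unadjusted p = 0.111). No member was called among the 32 genes of the sarcoplasmic reticulum and calcium handling (median 0.03) or the 4 creatine kinases (median -0.21). A troponin skeletal muscle gene model (Sa_189.2.1), part of the calcium switch, varied widely within groups, with 116, 1527 and 680.0 at 2 BL/s, against 1088, 494 and 1173 at 1 BL/s (log2 fold change -0.25, SE 0.70). It was not called.

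**Figure D4:**
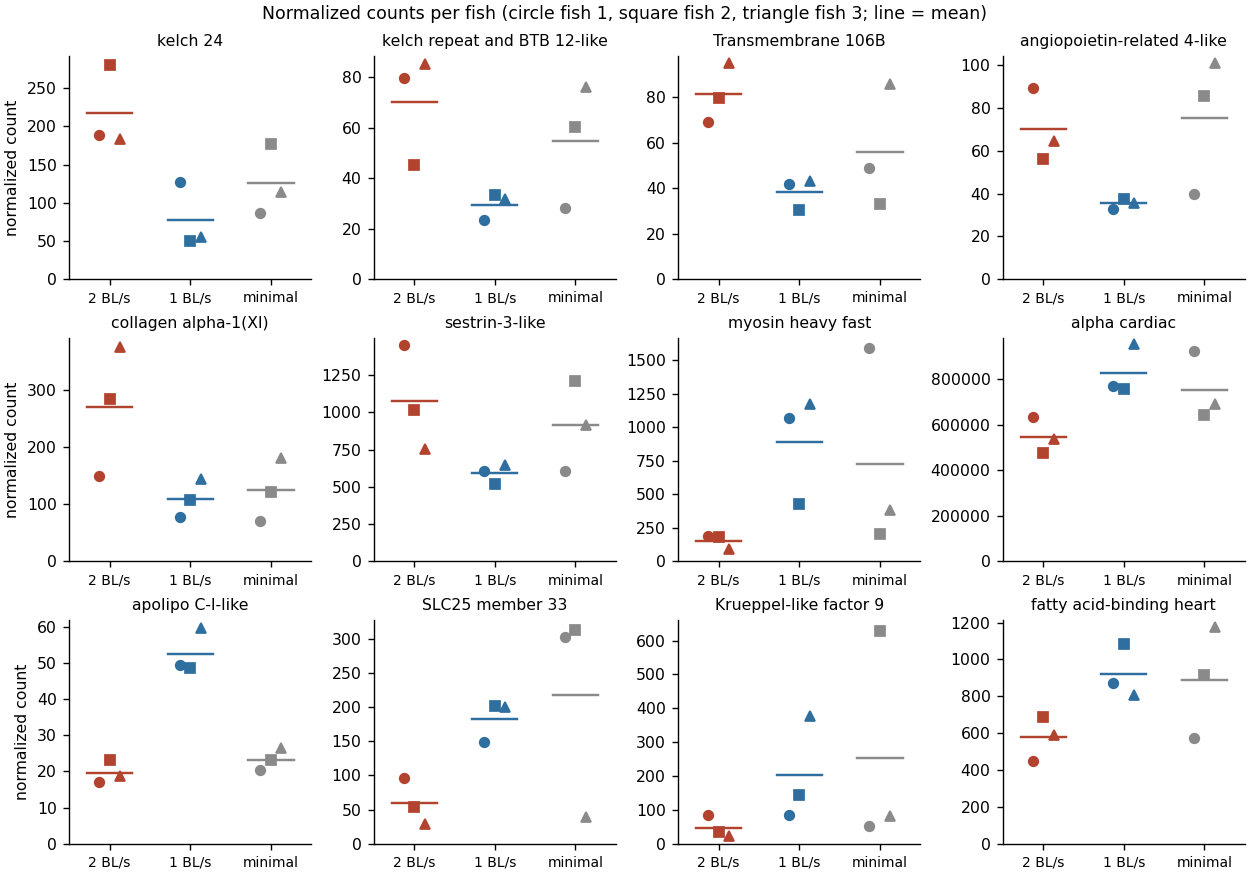
Normalized counts (y axes, linear) of 12 of the named gene models in each of the 9 fish, by group, with the group mean as a line. The first 6 are higher and the last 6 lower at 2 BL/s than at 1 BL/s at an unadjusted p of 0.05, and in all 12 the 2 BL/s and 1 BL/s fish do not overlap. In apolipo C-I-like the minimal flow fish (20.3 to 26.5) lie near those at 2 BL/s.

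Of 22 tested kelch proteins, many of which present substrates to cullin ubiquitin ligases, 4 were higher (18.2%, beside 1.97% of all gene models tested) and 0 lower, with a median log2 fold change of 0.24. Kelch 24 had 188, 280.4 and 183 normalized counts at 2 BL/s, against 128, 49.8 and 54.6 at 1 BL/s and 86.3, 177 and 114 at minimal flow. It was 2.79-fold higher in the faster fish (log2 fold change 1.48, SE 0.39, unadjusted p = 0.00387), and its groups did not overlap. The edgeR Benjamini-Hochberg adjusted p was 0.897. Over the alternatives it was between 0.000345, in the fit without a filter on low counts, and 0.999, with 0.217 in DESeq2. The kelch repeat and BTB domain-containing 12-like gene model had 79.6, 45.2 and 85.3 at 2 BL/s, against 23.4, 33.5 and 31.8 at 1 BL/s and 28.4, 60.4 and 76.03 at minimal flow (log2 fold change 1.25, SE 0.32, unadjusted p = 0.00343). Both were called without each fish in turn, and in both the lowest fish at 2 BL/s lay above the highest at 1 BL/s. The other two calls were gene models of kelch 33. Sa_13080.3.1 had 419, 432 and 627 at 2 BL/s, against 364, 321 and 158 at 1 BL/s (log2 fold change 0.81, SE 0.33, unadjusted p = 0.0349). Sa_825.3.1 had 33.1, 49.2 and 30.95 at 2 BL/s, against 18.2, 22.4 and 27.95 at 1 BL/s (log2 fold change 0.73, SE 0.32, unadjusted p = 0.049). Their groups did not overlap either, but the first was not called without fish 3 at 1 BL/s (unadjusted p = 0.0613) or fish 3 at 2 BL/s (unadjusted p = 0.142). The second was called without fish 3 at 1 BL/s, but not without any of the other 5 fish (unadjusted p between 0.0549 and 0.208). With fish 3 at 1 BL/s left out, 3 members of the list were called, again 0 of them lower (median 0.20). As a sum, the list did not differ in the same way. It held 0.175, 0.188 and 0.187% of the counts at 2 BL/s, against 0.182, 0.153 and 0.154% at 1 BL/s, which overlapped.

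Among 23 genes of the atrophy ubiquitin ligases, FoxO factors and autophagy, 2 were higher and 0 lower (8.70% called, beside 4.24% of all tested, median 0.15). Polyubiquitin-B, a source of free ubiquitin, had 128, 263 and 199.8 normalized counts at 2 BL/s, against 103, 85.4 and 104 at 1 BL/s and 149, 112 and 71.6 at minimal flow. It was 2.02-fold higher in the faster fish (log2 fold change 1.01, SE 0.30, unadjusted p = 0.00729), with groups that did not overlap, and was called without each fish in turn. The Beclin 1-associated autophagy-related key regulator, which helps to start autophagosomes, had 35.99, 28.1 and 30.01 at 2 BL/s, against 12.1, 21.3 and 12.7 at 1 BL/s (log2 fold change 1.02, SE 0.35, unadjusted p = 0.0158). This call was lost without fish 1 at 2 BL/s (unadjusted p = 0.056) or fish 1 at 1 BL/s (unadjusted p = 0.0623). Outside the lists, the E3 ubiquitin ligase MARCH7 had 69.1, 90.4 and 72.2 at 2 BL/s, against 52.1, 27.4 and 35.6 at 1 BL/s (log2 fold change 1.00, SE 0.30, unadjusted p = 0.00833). These too had groups that did not overlap. Muscle RING finger 1, a ligase of muscle wasting, had 301, 523 and 424 at 2 BL/s, against 296, 339 and 1030.3 at 1 BL/s and 298, 2805 and 522 at minimal flow. It was not called, and the sign of its log2 fold change depended on fish 3 at 1 BL/s (-0.41 with and 0.38 without it). Of the 25 proteasome genes and the 52 heat shock proteins and chaperonins, 0 were called.

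Fatty acid uptake and oxidation was the list with the largest number of calls, 1 higher and 6 lower of 32 tested, with a median of 0.01. This was 21.9%, beside 4.24% of all gene models tested. By share the small lists of the AMP-activated kinase (28.6%) and the circadian clock (23.5%) had more. Without fish 3 at 1 BL/s it had 1 higher and 3 lower. Fatty acid-binding heart, a carrier of fatty acids in the cytosol of muscle, had 447, 689 and 592 normalized counts at 2 BL/s, against 872, 1084 and 804 at 1 BL/s and 574, 915 and 1175 at minimal flow. It was 1.60-fold lower (log2 fold change -0.68, SE 0.23, unadjusted p = 0.0174), and its groups did not overlap. The call was lost without fish 1 at 2 BL/s (unadjusted p = 0.0614) or fish 2 at 1 BL/s (unadjusted p = 0.0673). A peroxisome proliferator-activated receptor gamma coactivator gene model (Sa_30678.1.1), from a family of activators of mitochondrial and oxidative genes, had 30.3, 12.1 and 27.2 at 2 BL/s, against 57.3, 45.7 and 45.7 at 1 BL/s and 18.3, 219 and 50.4 at minimal flow (log2 fold change -1.09, SE 0.36, unadjusted p = 0.0136). It was called without each fish in turn. An enoyl hydratase domain-containing mitochondrial gene model had 18.00, 16.1 and 13.1 at 2 BL/s, against 34.7, 29.5 and 45.7 at 1 BL/s (log2 fold change -1.21, SE 0.32, unadjusted p = 0.00436). The member called higher was angiopoietin-related 4-like, a secreted inhibitor of lipoprotein lipase in mammals. It had 89.03, 56.3 and 64.7 at 2 BL/s, against 32.97, 37.6 and 35.6 at 1 BL/s and 39.6, 85.7 and 101 at minimal flow (log2 fold change 0.98, SE 0.27, unadjusted p = 0.00518). Here the minimal flow fish reached as high as those at 2 BL/s. Apolipo C-I-like, a component of lipoproteins and on no list, had 17.05, 23.1 and 18.8 at 2 BL/s, against 49.5, 48.8 and 59.7 at 1 BL/s and 20.3, 23.1 and 26.5 at minimal flow. It was 2.67-fold lower at 2 BL/s (log2 fold change -1.42, SE 0.28, unadjusted p = 0.000601), was called without each fish in turn, and stood at the same low level at minimal flow as at 2 BL/s.

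By their median log2 fold change, respiratory chain and ATP synthase genes lay slightly lower at 2 BL/s. Of 54 tested, 2 were called lower and 0 higher (3.70% called, beside 4.24% of all tested), and the median was -0.30. In 16 of the 54 the fish at 2 BL/s lay below all fish at 1 BL/s (29.6%, beside 5.48% of all gene models tested), and in 0 above. Without fish 3 at 1 BL/s this was 21 of 55 (38.2%, beside 9.59% of all), with a median of -0.23 and no call. The median was negative under every setting tried, between -0.41 and -0.22. The members called were a mitochondrial-like cytochrome c oxidase subunit with 272, 358 and 347 normalized counts at 2 BL/s, against 436, 446 and 584 at 1 BL/s (log2 fold change -0.59, SE 0.22, unadjusted p = 0.0278), and an NADH dehydrogenase 1 alpha subcomplex subunit with 114, 139 and 128 at 2 BL/s, against 165, 163 and 226 at 1 BL/s (log2 fold change -0.54, SE 0.24, unadjusted p = 0.0476). As shares of all counts the list did not separate the groups, with 0.402, 0.584 and 0.482% at 2 BL/s, against 0.499, 0.530 and 0.496% at 1 BL/s. The 20 citric acid cycle genes gave 0 calls (median -0.02). Solute carrier family 25 member 33, a mitochondrial carrier of pyrimidine nucleotides, had 95.7, 54.3 and 28.1 at 2 BL/s, against 148, 201 and 201 at 1 BL/s and 302, 313 and 39.8 at minimal flow. It was 3.08-fold lower at 2 BL/s (log2 fold change -1.62, SE 0.40, unadjusted p = 0.0028), with groups that did not overlap, and was called without each fish in turn. Of 52 tested solute carriers it was the only call (1.92%, beside 4.24% of all tested).

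On the glycolysis and glycogen list, 1 of 39 members was higher and 2 were lower (7.69% called, beside 4.24% of all tested, median 0.06). Hexokinase-1-like, which phosphorylates glucose on entry, had 39.8, 65.3 and 36.6 normalized counts at 2 BL/s, against 21.7, 35.6 and 12.7 at 1 BL/s (log2 fold change 1.00, SE 0.41, unadjusted p = 0.0357). A minor gene model of fructose-bisphosphate aldolase A (Sa_16924.2.1), which splits the sugar in glycolysis, had 25.6, 36.2 and 78.8 at 2 BL/s, against 78.1, 68.1 and 169 at 1 BL/s (log2 fold change -1.15, SE 0.48, unadjusted p = 0.0394). Phosphoglucomutase 5, a muscle relative of the glycogen enzyme, had a log2 fold change of -0.69 (SE 0.30, unadjusted p = 0.0487). The groups did not overlap for hexokinase-1-like and did for the others, and none of the 3 was called without fish 3 at 1 BL/s. Of the 7 tested genes of the AMP-activated kinase, the energy sensor of the cell, 2 were called (28.6%, beside 4.24% of all tested). These were gene models of the same gamma-1-like subunit, called in opposite directions. Sa_29221.2.3 had 329, 235 and 300.1 at 2 BL/s, against 162, 232 and 168 at 1 BL/s (log2 fold change 0.62, SE 0.24, unadjusted p = 0.031). Sa_29221.2.1 had 12.3, 13.1 and 36.6 at 2 BL/s, against 24.3, 55.9 and 62.3 at 1 BL/s (log2 fold change -1.18, SE 0.51, unadjusted p = 0.0441). Their identifiers share a stem, so reads may have been shared between them, and without fish 3 at 1 BL/s neither was called.

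Among genes of serine and one-carbon metabolism, including serine breakdown, and of creatine synthesis, 3 of 24 were lower and 0 higher (12.5% called, beside 4.24% of all tested, median 0.07). L-serine dehydratase L-threonine deaminase, which breaks down serine and threonine, had 206, 129 and 56.3 normalized counts at 2 BL/s, against 174, 1071 and 981 at 1 BL/s and 370.4, 862 and 469 at minimal flow. It was 5.69-fold lower at 2 BL/s (log2 fold change -2.51, SE 0.66, unadjusted p = 0.00412) and called without each fish in turn, but fish 1 at 1 BL/s lay within the range at 2 BL/s. The edgeR Benjamini-Hochberg adjusted p was 0.897. Over the alternatives it was between 9.54e-15, in the fit without a filter on low counts, and 0.999. DESeq2 gave an adjusted p of 0.00658. A serine dehydratase-like gene model had 22.7, 13.1 and 21.6 at 2 BL/s, against 22.6, 33.5 and 67.3 at 1 BL/s (log2 fold change -1.08, SE 0.45, unadjusted p = 0.0382). The bifunctional methylenetetrahydrofolate dehydrogenase, of mitochondrial folate metabolism, had 447, 378 and 301 at 2 BL/s, against 534, 406 and 962 at 1 BL/s (log2 fold change -0.75, SE 0.33, unadjusted p = 0.0462). In both, fish 3 at 1 BL/s was the highest, the groups overlapped, and without it the unadjusted p was 0.186 and 0.195.

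Cytosolic ribosomal protein genes also lay lower at 2 BL/s, in large part through fish 3 at 1 BL/s. Of 38 tested, 2 were called lower and 0 higher (5.26% called, beside 4.24% of all tested). The median was -0.43, and in 17 (44.7%, beside 5.48% of all tested) the faster fish lay below all slower ones. With fish 3 at 1 BL/s left out, the median was -0.12 with 0 calls, and the groups did not overlap in 17 (beside 9.59% of all below). The list held 1.49, 1.66 and 1.63% of the counts at 2 BL/s, against 1.67, 1.56 and 2.14% at 1 BL/s, where the highest value was fish 3. The members called were 60S ribosomal L17, with 1895, 1734 and 1816 normalized counts at 2 BL/s, against 2297, 2155 and 3639.9 at 1 BL/s (log2 fold change -0.57, SE 0.24, unadjusted p = 0.0383), and 40S ribosomal S3, with 3191, 2948 and 3000.3 at 2 BL/s, against 3701, 3494 and 6453 at 1 BL/s (log2 fold change -0.58, SE 0.26, unadjusted p = 0.0494). Ribosomal protein transcripts are short, and this is the fish with low values for gene models listed as long transcripts. The part of transcript length in these values was not tested. Of 42 mitochondrial ribosomal protein genes, 3 were lower and 0 higher (7.14% called, beside 4.24% of all tested, median -0.14). Of 50 translation factors and tRNA ligases 0 were called (median -0.11). The 28S ribosomal mitochondrial gene model Sa_13977.1.1 was low in every fish at 2 BL/s, with 39.8, 38.2 and 39.4 at 2 BL/s, against 59.00, 64.03 and 62.3 at 1 BL/s (log2 fold change -0.66, SE 0.23, unadjusted p = 0.0191), and its values did not depend on that fish (log2 fold change -0.66 without it).

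Among growth and myogenic regulators 3 gene models were called. Myostatin, which restrains muscle growth, had 664, 304 and 193 normalized counts at 2 BL/s, against 182, 133 and 248 at 1 BL/s and 338, 370.1 and 377 at minimal flow. It was called as higher (log2 fold change 1.05, SE 0.44, unadjusted p = 0.0392), but the groups overlapped, fish 3 at 2 BL/s lying between the fish at 1 BL/s. The highest value was that of fish 1 at 2 BL/s, without which the log2 fold change was 0.40 (unadjusted p = 0.275), and the call was also lost without fish 1 (unadjusted p = 0.0926) or fish 2 at 1 BL/s (unadjusted p = 0.135). It was the only call among 19 genes of the GH, IGF and myostatin axis (5.26%, beside 4.24% of all tested, median -0.11). Insulin-like growth factor I, the main growth factor of that axis, was too low to be tested, with raw counts of 3, 8 and 14 at 2 BL/s, against 11, 9 and 11 at 1 BL/s (ratio 0.86, 95% counting interval 0.487 to 1.51, which covers counting error only). Of 31 myogenic regulators, 2 were lower and 0 higher (6.45% called, median 0.15). Cadherin-15, an adhesion protein of myoblasts and satellite cells, had 32.2, 33.2 and 34.7 normalized counts at 2 BL/s, against 54.7, 50.8 and 60.98 at 1 BL/s, tight groups that did not overlap (log2 fold change -0.73, SE 0.24, unadjusted p = 0.0147). A doublesex- and mab-3-related transcription factor gene model (Sa_54637.1.1), grouped here because members of this family act in early muscle formation in vertebrates, had 5.68, 13.1 and 9.38 at 2 BL/s, against 19.1, 17.3 and 50.8 at 1 BL/s (log2 fold change -1.60, SE 0.53, unadjusted p = 0.0148). It was not called without fish 3 at 1 BL/s (unadjusted p = 0.0726). The myogenic factor myoblast determination 1 had 542, 447 and 517 at 2 BL/s, against 428, 681 and 818 at 1 BL/s and was not called. The enhancer factors mef2A and mef2C-like, which act with the myogenic factors, showed how far fish 3 at 1 BL/s departed. Mef2A had 342, 533 and 464 at 2 BL/s, against 609, 618 and 81.3 at 1 BL/s, with a log2 fold change of 0.03 with that fish and -0.47 without it (unadjusted p = 0.0681). Mef2C-like had 458, 637 and 494 at 2 BL/s, against 478, 642 and 58.4 at 1 BL/s. Basic helix-loop-helix transcription factor scleraxis, a regulator of tendon, had 10.4, 17.1 and 9.38 at 2 BL/s, against 19.96, 35.6 and 31.8 at 1 BL/s. It was lower at 2 BL/s without overlap (log2 fold change -1.23, SE 0.40, unadjusted p = 0.012), while tendon markers as a group were highest in fish 3 at 2 BL/s.

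Transcripts that respond to glucocorticoids and stress had a median log2 fold change of -0.40 over 18 tested members, which was 0.06 without fish 3 at 1 BL/s. With all 6 fish 1 member was higher and 1 lower (11.1% called, beside 4.24% of all tested). Krueppel-like factor 9, a transcription factor induced by glucocorticoids, had 84.3, 35.2 and 22.5 normalized counts at 2 BL/s, against 85.03, 142 and 377 at 1 BL/s and 50.7, 629 and 82.2 at minimal flow. It was 4.23-fold lower at 2 BL/s (log2 fold change -2.08, SE 0.62, unadjusted p = 0.00811) and still called without fish 3 at 1 BL/s (unadjusted p = 0.0317, log2 fold change -1.27). The groups were separate by less than 1 normalized count, fish 1 at 2 BL/s and fish 1 at 1 BL/s lying side by side. Sestrin-3-like, of a family of stress-induced regulators of growth signalling, had 1450.0, 1017 and 757 at 2 BL/s, against 605, 520.4 and 648 at 1 BL/s and 608, 1209 and 918 at minimal flow. It was 1.82-fold higher in the faster fish (log2 fold change 0.86, SE 0.26, unadjusted p = 0.00918) with no overlap, and called without each fish in turn. Other genes of this kind were not called. DNA damage-inducible transcript 4 had 215, 57.3 and 100.4 at 2 BL/s, against 95.4, 90.5 and 226 at 1 BL/s. The kinase Sgk1, induced by glucocorticoids, had 70.1, 29.1 and 12.2 at 2 BL/s, against 39.04, 57.9 and 54.6 at 1 BL/s. Zinc finger and BTB domain-containing 16 had 44.5, 33.2 and 37.5 at 2 BL/s, against 43.4, 41.7 and 80.04 at 1 BL/s, and the groups overlapped in all 3. Among 18 immediate early genes the only call was ATF-3, a transcription factor induced by stress (5.56% called, beside 4.24% of all tested). It was lower at 2 BL/s with overlapping groups of 12.3, 4.02 and 5.63 at 2 BL/s, against 6.94, 33.5 and 44.5 at 1 BL/s (log2 fold change -1.90, SE 0.69, unadjusted p = 0.0219). It was not called without fish 3 at 1 BL/s (unadjusted p = 0.0822).

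Circadian clock genes gave 4 calls of 17 tested (23.5%, beside 4.24% of all tested), 1 higher and 3 lower, with a median of 0.07. Circadian locomoter output cycles kaput-like, the activating arm of the clock, had 34.1, 40.2 and 32.8 normalized counts at 2 BL/s, against 22.6, 12.2 and 2.54 at 1 BL/s, without overlap (log2 fold change 1.45, SE 0.53, unadjusted p = 0.0226). Of the 17, 9 had a positive and 8 a negative log2 fold change. The 3 lower calls were of different kinds of clock gene. Class E basic helix-loop-helix 40 had 208, 67.3 and 59.1 at 2 BL/s, against 301, 190.1 and 596 at 1 BL/s, which overlapped (log2 fold change -1.69, SE 0.55, unadjusted p = 0.0131), and period homolog 2-like had 28.4, 24.1 and 44.1 at 2 BL/s, against 46.9, 60.98 and 50.8 at 1 BL/s, which did not (log2 fold change -0.71, SE 0.30, unadjusted p = 0.0435). The nuclear receptor ROR-alpha-like had 2.84, 5.02 and 5.63 at 2 BL/s, against 10.4, 11.2 and 13.98 at 1 BL/s, few counts but without overlap (log2 fold change -1.36, SE 0.51, unadjusted p = 0.0254). Leaving out fish 3 at 1 BL/s, only circadian locomoter output cycles kaput-like was called, and none of the 3 lower ones. The call of circadian locomoter output cycles kaput-like was lost without fish 2 at 2 BL/s (unadjusted p = 0.065) or fish 2 at 1 BL/s (unadjusted p = 0.0616). The hour at which each fish was sampled is not known here, and its part in these values was not tested.

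Of the matrix transcripts called higher, only collagen alpha-1(XI) lay above 1 BL/s in every fish at 2 BL/s. The others were high in 1 fish. Collagen alpha-1(XI), a minor fibrillar collagen of cartilage and tendon, had 149.6, 284 and 375 normalized counts at 2 BL/s, against 78.1, 107 and 144 at 1 BL/s and 71.04, 122 and 181 at minimal flow. It was 2.47-fold higher in the faster fish (log2 fold change 1.31, SE 0.37, unadjusted p = 0.00594), without overlap, and called without each fish in turn. Its edgeR Benjamini-Hochberg adjusted p was 0.897. Over the alternatives it was between 0.00225, in the fit without a filter on low counts, and 0.999, with 0.560 in DESeq2. Collagen alpha-6(VI), of the network around fibres, had 10.4, 16.1 and 27.2 at 2 BL/s, against 39.04, 44.7 and 34.3 at 1 BL/s and was lower without overlap (log2 fold change -1.13, SE 0.38, unadjusted p = 0.0145). The largest fold changes were of another kind. Collagen alpha-1(X), a marker of hypertrophic cartilage, had 114, 124 and 6244 at 2 BL/s, against 198, 7.11 and 80.04 at 1 BL/s and 75.1, 54.9 and 83.99 at minimal flow (log2 fold change 4.50, SE 1.62, unadjusted p = 0.0209). Papilin-like, a matrix glycoprotein, had 13.3, 18.1 and 1095 at 2 BL/s, against 21.7, 1.02 and 7.62 at 1 BL/s (log2 fold change 5.14, SE 1.67, unadjusted p = 0.0129). Collagen alpha-2(V) had 12.3, 19.1 and 469 at 2 BL/s, against 28.6, 5.08 and 7.62 at 1 BL/s (log2 fold change 3.53, SE 1.31, unadjusted p = 0.0239). All 3 were high in fish 3 at 2 BL/s alone, the other fish of both groups overlapped, and none was called without that fish. Both collagens also lost the call without fish 3 at 1 BL/s, with a log2 fold change of 4.38 for alpha-1(X) and 3.26 for alpha-2(V). Of 30 collagens, 3 were higher and 1 lower (13.3% called, beside 4.24% of all tested, median 0.10). Of 62 matrix glycoproteins and remodelling enzymes, 1 was higher and 1 lower (3.23% called, median 0.07). Of 15 cartilage and bone genes, 2 were higher and 0 lower (13.3% called, median -0.04). Both are collagens already counted above, alpha-1(XI) and alpha-1(X).

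Vessel and cell surface genes were called in both directions. Of 22 genes of angiogenesis and endothelium, 2 were lower and 0 higher (9.09% called, beside 4.24% of all tested). Thrombomodulin-like, an anticoagulant receptor of endothelium, had 165, 154 and 122 normalized counts at 2 BL/s, against 204, 228 and 227 at 1 BL/s (log2 fold change -0.58, SE 0.22, unadjusted p = 0.0275), without overlap, and was not called without fish 3 at 2 BL/s (unadjusted p = 0.109). Plasmalemma vesicle-associated, a protein of endothelial pores, had 32.2, 8.04 and 13.1 at 2 BL/s, against 22.6, 50.8 and 60.98 at 1 BL/s (log2 fold change -1.31, SE 0.54, unadjusted p = 0.0371), with overlap, and was not called without fish 3 at 1 BL/s. Of 68 actin cytoskeleton and adhesion genes, 2 were higher and 1 lower (4.41% called, near the 4.24% of all tested). Integrin beta-6, a receptor for matrix, was higher (log2 fold change 0.81, SE 0.34, unadjusted p = 0.0416). Actin-related 2 3 complex subunit 2, of the complex that branches actin filaments, was lower (log2 fold change -0.63, SE 0.26, unadjusted p = 0.037). Both had groups that did not overlap, but neither was called without fish 3 at 1 BL/s (unadjusted p = 0.0866 for integrin beta-6 and 0.0901 for the complex subunit). Gelsolin-like, an actin-severing protein, had 13.3, 36.2 and 541 at 2 BL/s, against 26.03, 19.3 and 35.6 at 1 BL/s, again high in fish 3 at 2 BL/s alone (log2 fold change 2.87, SE 1.13, unadjusted p = 0.031), and without that fish its log2 fold change was -0.14. It also lost the call without fish 3 at 1 BL/s (unadjusted p = 0.0508). The sodium channel subunit beta-1, an accessory part of the channel that carries the action potential, had 26.5, 36.2 and 23.4 at 2 BL/s, against 19.1, 12.2 and 6.35 at 1 BL/s (log2 fold change 1.15, SE 0.43, unadjusted p = 0.0239), the only call of 8 sodium channel genes (12.5%, beside 4.24% of all tested). Without fish 3 at 1 BL/s it was not called (unadjusted p = 0.0519), and of the 8 genes 0 were then higher and 1 was lower. Of 59 splicing factors and nuclear RNA-binding proteins, 2 were higher and 0 lower (3.39% called, beside 4.24% of all tested). These were splicing factor U2AF 65 kDa subunit-like (log2 fold change 0.84, SE 0.31, unadjusted p = 0.0225) and pre-mRNA-processing factor 6 (log2 fold change 0.63, SE 0.25, unadjusted p = 0.0328). EMILIN-2-like, a glycoprotein of elastic fibres, was lower (log2 fold change -0.76, SE 0.31, unadjusted p = 0.0388). None of these 3 was called without fish 3 at 1 BL/s, with an unadjusted p of 0.0532 for U2AF 65 kDa, 0.073 for pre-mRNA-processing factor 6 and 0.136 for EMILIN-2-like.

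Several of the gene models with the smallest p and groups that did not overlap were on no list. Transmembrane 106B, a protein of the lysosome membrane, had 69.1, 79.4 and 94.7 normalized counts at 2 BL/s, against 41.6, 30.5 and 43.2 at 1 BL/s and 48.7, 32.9 and 85.8 at minimal flow. It was 2.11-fold higher in the faster fish (log2 fold change 1.08, SE 0.27, unadjusted p = 0.00272). Polyhomeotic 2, of the Polycomb complexes that silence genes, had 22.7, 31.2 and 22.5 at 2 BL/s, against 6.94, 12.2 and 8.89 at 1 BL/s (log2 fold change 1.44, SE 0.39, unadjusted p = 0.00454). Inositol polyphosphate 5-phosphatase K-like, an enzyme of phosphoinositide turnover, had 37.9, 32.2 and 37.5 at 2 BL/s, against 19.1, 18.3 and 19.1 at 1 BL/s (log2 fold change 0.93, SE 0.28, unadjusted p = 0.00898). In these 3 each fish at 2 BL/s was above each fish at 1 BL/s by a clear margin. Also higher were a proline-serine-threonine phosphatase-interacting gene model (log2 fold change 1.48), guanylyl cyclase-activating 2-like (1.56) and a dehydrogenase reductase of the SDR family (1.29). The serine threonine kinase SBK1-like had 507, 632 and 522 at 2 BL/s, against 792, 1372 and 995 at 1 BL/s and 796, 922 and 787 at minimal flow, and was lower (log2 fold change -0.93, SE 0.25, unadjusted p = 0.00434). Further lower gene models were prostaglandin F synthase-like (log2 fold change -1.35), amyloid beta A4 (-1.10), S100-A14 (-1.10), a bifunctional arginine demethylase and lysyl-hydroxylase (-1.25) and a gene model without a description, Sa_29127.3.1 (-1.86). All of them were called without each fish in turn. With edgeR, the Benjamini-Hochberg adjusted p was 0.897 for each gene model named here as called other than the myosin heavy chain.

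The study names 10 gene models as changed at both speeds relative to minimal flow, of which 9 could be matched by identifier. These share the minimal flow fish between their comparisons, so only their values at the 2 speeds are set against each other here. Of the 7 that were tested, 0 were called between the speeds. Unconventional myosin-XVIIIa had 99.4, 61.3 and 63.8 normalized counts at 2 BL/s, against 68.5, 65.05 and 24.1 at 1 BL/s and 117, 127 and 130.0 at minimal flow (log2 fold change 0.49, SE 0.39, 95% interval -0.39 to 1.38). The transcription factor Dmrt2b had 29.4, 38.2 and 16.9 at 2 BL/s, against 32.1, 24.4 and 17.8 at 1 BL/s and 8.12, 5.49 and 15.9 at minimal flow (95% interval -0.70 to 1.03). Angiopoietin-1, a growth factor of vessels, had 48.3, 73.4 and 47.8 at 2 BL/s, against 46.9, 53.9 and 58.4 at 1 BL/s and 18.3, 37.3 and 22.1 at minimal flow (95% interval -0.52 to 0.71). The groups at the 2 speeds overlapped in each. For MTSS1 the log2 fold change between the speeds was -0.03, for cordon-bleu 0.04, for anoctamin-1-like 0.02 and for an MHC class II antigen beta gene model -0.17. These intervals are wide, so a modest difference between the speeds was not detectable. Kelch 41 and transmembrane 145 had too few counts to be tested. Kelch 41, a muscle member of the kelch family that holds thin filament proteins stable in mammals, had 19, 12 and 2 raw counts at 2 BL/s, against 2, 6 and 2 at 1 BL/s and 0, 0 and 0 at minimal flow. The ratio between the speeds was 3.52 (95% counting interval 1.69 to 8.01). That interval covers counting error only and leaves out the spread between fish, and the groups at the 2 speeds overlapped. Fish 3 at 2 BL/s had no more than the fish at 1 BL/s. Transmembrane 145 had 3, 1 and 1 raw counts at 2 BL/s, against 4, 1 and 0 at 1 BL/s and 6, 11 and 19 at minimal flow.

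Over the 33 gene lists, 971 of the gene models tested were on at least 1 list and 58 of these were called (5.97%, beside 4.24% of all tested), while 110 calls were on no list. On 9 lists there were 0 calls at an unadjusted p of 0.05. These were calcium handling, creatine kinases, the citric acid cycle, translation factors, the proteasome, heat shock proteins, antigen presentation (median -0.21), the interferon response (median 0.06) and histones (median -0.46). Over all gene models tested the quartiles of the log2 fold change were -0.24 and 0.31, and most lists had medians inside that range. Those outside it were the respiratory chain, the ribosomal proteins, the glucocorticoid responsive genes, the sodium channels (median 0.41) and the histones. When fish 3 at 1 BL/s was left out, all of these medians but that of the 5 tested histones (-0.30) lay inside this range of the 6 fish. That of the respiratory chain did so only barely (-0.234, against a quartile of -0.238). Quartiles without that fish are not given here.

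**Figure D5:**
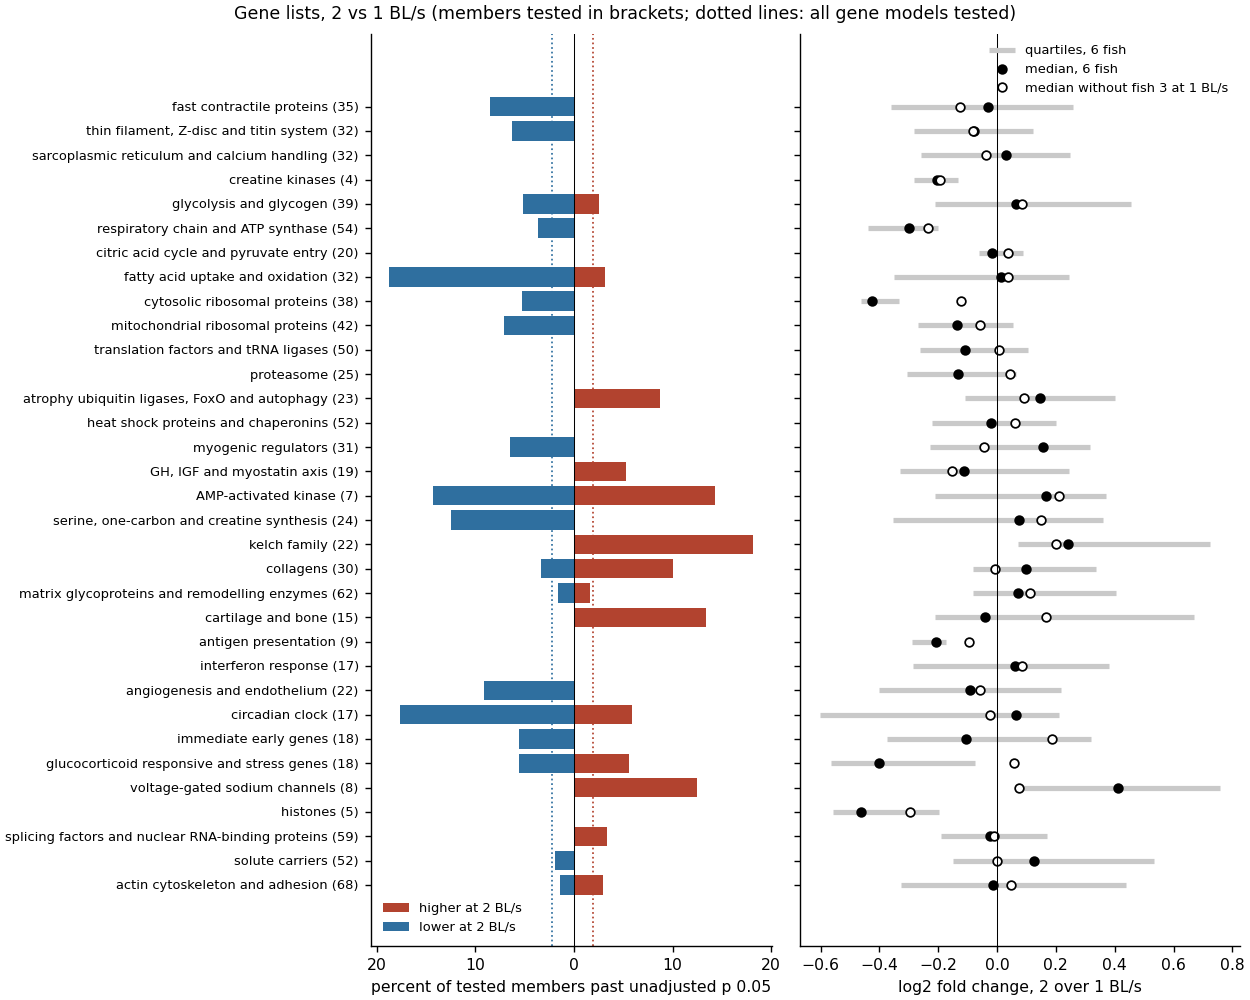
Gene lists in the comparison of 2 with 1 BL/s. Left, percent of tested members past an unadjusted p of 0.05, with higher to the right and lower to the left of 0 and dotted lines at the 1.97% and 2.27% of all gene models tested. Right, median log2 fold change with all 6 fish (filled) and without fish 3 at 1 BL/s (open) and the quartiles (grey). The kelch list has 4 of 22 members higher, the fatty acid list 6 of 32 lower, and the ribosomal median is -0.43 with all 6 fish and -0.12 without that fish.

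The filter left out 9444 gene models with at least 1 count, which together held 0.429% of the counts. Of these, 81 had a count in every fish of the 2 BL/s group and none in the 1 BL/s group, and 40 the reverse. They are among 1996 gene models counted in any fish at 2 BL/s and in none at 1 BL/s, and 1581 the other way. Fish 3 at 1 BL/s had counts on fewer gene models than the other fish, and its part in these numbers was not tested. Among the 81, nuclear factor erythroid 2-related factor 1-like, a stress-responsive transcription factor, had 5, 7 and 3 raw counts at 2 BL/s, none at 1 BL/s, and 0, 40 and 5 at minimal flow. With the empty group set to a floor of 3 counts, the ratio of 2 over 1 BL/s was 5.33. Partner and localizer of BRCA2, of DNA repair, had 2, 5 and 8 at 2 BL/s (ratio 5.33). Kinase D-interacting substrate of 220 kDa had 7, 4 and 3 (ratio 4.98). In the other direction, a caspase-8-like gene model, of cell death signalling, had no raw count at 2 BL/s, against 4, 2 and 3 at 1 BL/s. With the same floor its ratio of 1 over 2 BL/s was 2.81. The paper lists a caspase-8-like gene as upregulated at 2 BL/s against minimal flow, which is thus another gene model, not described here. The kinesin KIF23, of cell division, had none at 2 BL/s, against 2, 6 and 2 at 1 BL/s. Rap guanine nucleotide exchange factor 5-like had none at 2 BL/s, against 1, 8 and 1 at 1 BL/s. For each the ratio of 1 over 2 BL/s was 3.12. These folds cover counting error only, with no test.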

How the data were processed

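Per the labels and the paper, the authors dissected white muscle of each fish, prepared stranded mRNA libraries, aligned reads with TopHat2 2.0.13 to the seabream reference assembly at NCBI that the paper links, excluded secondary alignments with SAMtools 1.2 and counted per gene model with HTSeq 0.6.1p1. The assembly's name, the strand setting of the counting and how reads with equally good matches were placed were not stated in what was read here, so near-identical or overlapping gene models are uncertain. The deposited counts are the authors' raw numbers per gene model and fish, not normalized. The tables also hold the authors' group means, fold changes and p-values from DESeq, which were not used, and 2 columns without a sample label, also not used.

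Counts of the 6 fish were tested with edgeR 4.0.16 (R 4.3.3): TMM normalization, filterByExpr, quasi-likelihood test, Benjamini-Hochberg adjustment over 3963 gene models. A call is an unadjusted p below 0.05, the paper's threshold. The standard error is the size of the log2 fold change divided by the square root of F. Normalized counts are counts divided by TMM factor times library size, with the geometric mean of these divisors over the 6 fish set to 1, and minimal flow fish were put on that scale. CPM are counts times a constant over the library total. Alternatives used DESeq2 1.42.0, limma 3.58.1, other scalings, filters and sets of fish. The edgeR script was tested on simulated data. The rest was done in Python 3.11.15 (pandas 2.3.3, numpy 2.4.6, matplotlib 3.10.9, scipy 1.17.1). No 2 fish agreed within sampling noise.

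Gene models named are the 12 per direction with the smallest p and no overlap, up to 10 called in all of a set of fits, up to 4 called members per list, the 5 most abundant, those the study names at both speeds, up to 3 per direction seen in 1 group only, and members that carry the tissue's biology. Lists are word searches in the tables' descriptions. The comparison, lists and rules were chosen with earlier results of these data known. P-values measure the spread between fish of 1 tank each. Totals were between 3660245 and 4818384 counts. No sequence or coordinate was used.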

Additional observations from a re-analysis of the deposited data

How the results depend on the processing

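The number of gene models past an adjusted p of 0.05 was 0 in edgeR under every scaling, set of fish and the stricter filter tried, against 2 in DESeq2 and 72 without a filter on low counts. Of those 72, 34 would have been kept by the filter, 12 had groups that did not overlap and 56 had over 50% of their normalized counts in 1 fish. At an unadjusted p of 0.05 the count was 168, against 633 without a filter and 73 with the stricter filter (a mean of at least 50 counts, 1538 tested). Leaving out single fish gave 120 to 299 calls and 776 to 1072 gene models without overlap, against 429 with all 6 fish and 185 with the stricter filter. Fewer fish overlap less often by construction. The share of calls that were higher was 46.4%, against 61.6% without a filter, 61.6% with the stricter one, 58% without fish 1 and 38.8% without fish 3 at 2 BL/s, and 39.8% with RLE size factors. With the sample number as a replicate block there were 178 calls, 118 of them shared, and 0 past an adjusted p of 0.05. The deviations of same-numbered fish correlated at -0.05, 0.16 and 0.13, not all of them over 0.1, and fish 1 at 2 BL/s did not correlate best with its own number, so the numbers were not taken as pairs.

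Of 1018 alternative values of the 70 called gene models chosen for description, 776 were called in the same direction, 241 were not called and 1 reversed. That was gelsolin-like, between -0.14 (without fish 3 at 2 BL/s) and 3.42 as log2 fold change when single fish were left out. Over all 168 calls 2 reversed, both without fish 3 at 2 BL/s, the other being transforming growth factor-beta receptor-associated 1-like (-0.097, against 3.22 with all fish). The sign of some gene models that were not called also changed. With all fish but fish 3 at 1 BL/s in one fit, the log2 fold change was -0.022 for Dmrt2b, 0.41 for DNA damage-inducible transcript 4, 0.056 for MTSS1, -0.31 for cordon-bleu, 0.051 for glyceraldehyde-3-phosphate dehydrogenase, 0.38 for muscle RING finger 1, -0.47 for mef2A and -0.092 for mef2C-like. Anoctamin-1-like had -0.0088 with RLE size factors and -0.0089 in DESeq2. When single fish were left out, the ranges were -0.12 to 0.42 for Dmrt2b, -0.80 to 0.41 for DNA damage-inducible transcript 4, -0.020 to 0.084 for L-lactate dehydrogenase A, -0.32 to 0.16 for MTSS1, -0.15 to 0.18 for angiopoietin-1, -0.22 to 0.14 for anoctamin-1-like, -0.31 to 0.37 for cordon-bleu, -0.23 to 0.052 for glyceraldehyde-3-phosphate dehydrogenase, -0.75 to 0.38 for muscle RING finger 1, -0.47 to 0.36 for mef2A, -0.090 to 0.97 for mef2C-like, -1.21 to 0.25 for the troponin skeletal muscle gene model and -2.54 to 3.39 for the slow troponin gene model. The cause of these changes was not tested. With 3 fish a group and 1 tank a speed, differences below about 1.77-fold were mostly not detectable.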

Other observations

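Several contractile gene models, some of them of slow type, were counted almost wholly in fish 2 at 2 BL/s. By a rule chosen after the values were seen (at least 50 counts in 1 fish and at least 10 times those of every other of the 9), 8 gene models stood out in this fish, 9 in fish 3 at 2 BL/s and 0 in each of the other 7 fish. Myosin-7-like, a slow myosin heavy chain, had raw counts of 1, 205 and 0 at 2 BL/s, against 0, 0 and 4 at 1 BL/s, and a further myosin-7-like gene model had 88 in fish 2 and at most 2 elsewhere. Myosin light chain 3 had 303 there and at most 20 in any other fish, myosin light chain 4-like 90 and at most 6, a troponin slow skeletal muscle-like gene model 117 and at most 2, and tropomyosin alpha-4 114 and at most 7. A myosin heavy chain gene model described as fast (Sa_9769.1.1) went with them, with 1074 and at most 14. So did sarcoplasmic endoplasmic reticulum calcium ATPase 1, with 76 and at most 2. The filter on low counts left these out. A slow troponin gene model that was tested (Sa_2545.1.1) had 2.84, 366 and 4.69 normalized counts at 2 BL/s, against 15.6, 7.11 and 45.7 at 1 BL/s, and was not called.

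In fish 3 at 2 BL/s the genes that stood out were mostly of the matrix. Collagen alpha-1(X) had 6657 raw counts there and at most 228 in any other fish, papilin-like 1168 and at most 25, collagen alpha-2(V) 500 and at most 33, the collagen cross-linking enzyme lysine 6-oxidase 277 and at most 8, and fibulin-7-like 80 and at most 4. Type II cytoskeletal 8-like, a keratin, had 1091 and at most 89, and gelsolin-like 577 and at most 43. Digestive enzyme genes, a list made after their values were seen, summed to 7.38 to 49.9 CPM at 2 BL/s, against 21.8 to 246 CPM at 1 BL/s and 8.51 to 28.7 CPM at minimal flow, with the highest value in fish 3 at 1 BL/s. The origin of these transcripts was not tested.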
